A study of Mus musculus with 7 samples.

Results

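The genes that activate fatty acids and break them down were followed in tibialis anterior (TA) muscle of WT and mir-486 KO mice. The set holds 38 genes of the 48795 in the count table, chosen by symbol for their place in the route. The choice was made with earlier results of these data known. The genes were sorted here into 9 steps, from activation of the fatty acid to its export or uncoupling. TA is a muscle of the shin made up largely of fast fibres, and RNA of whole TA was sequenced from 3 WT and 4 mir-486 KO libraries of mice aged 6 months, all male by the methods of the study. miR-486 is a microRNA abundant in muscle and encoded within an intron of Ank1, and the KO (genotype miR-486-/-) carries a whole-animal CRISPR deletion in that hairpin and is not restricted to muscle. The labels give the strain as C57BL/6 for WT and FVB N/J for KO, the WT columns of the table bear FVB in their names, and the methods describe backcrossing to 1 shared background, so genotype and strain cannot be told apart. Each cohort had 4 mice by the methods, while 3 WT libraries were analysed here. Whether each library is a separate animal is not in the labels, and p-values measure the spread between libraries only. In whole muscle, fewer cells of a type and less RNA per cell cannot be told apart.

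Long-chain fatty acids are joined to coenzyme A by acyl-CoA synthetases, handed to carnitine so that they can cross the inner mitochondrial membrane, and handed back to coenzyme A in the matrix. There each turn of β-oxidation runs through a dehydrogenation, a hydration, a second dehydrogenation and a thiolysis that releases acetyl-CoA, while electron transfer flavoprotein carries electrons to the respiratory chain. Peroxisomes shorten very long and branched chains, and skeletal muscle is one of the main sites of fatty acid use in fasting and endurance exercise.

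Gene counts came to between 23839577 and 28168275 reads per library. The miR-486 hairpin itself had 1, 1 and 0 reads in WT and 0 in each KO library, too few to check the deletion, and its host Ank1 had a log2 fold change of -0.10 with an adjusted p of 0.637 in edgeR. WT 3 stood apart: 34.3% of its reads had no unique alignment against 24.4% to 30.3% elsewhere, 22.4% of its gene counts were mitochondrially encoded against 13.0% to 17.9%, and component 1 of a principal component analysis, holding 53.9% of the variance, set it against the other 6 libraries. All 7 fast-fibre markers were present, with Myh4, the main fast myosin, at 39544 to 58805 CPM (counts per 1000000 reads, scaled between libraries by the TMM method). Among markers of other cells and fibres, 0 of 7 tested adipocyte markers passed the test, and their summed level, mostly Fabp4, ran from 192 to 511 CPM in WT and from 188 to 258 CPM in KO. The defining adipocyte genes Adipoq, Plin1 and Cidec were at or below 1.43 CPM in every library, Lep was at 0 in WT 2, KO 1 and KO 4, and Adrb3 in WT 2, WT 3, KO 2 and KO 4. Of the 7 slow-fibre markers 1 fell (Myl2), of 5 endothelial markers 1 fell (Kdr), of the 6 liver markers only Alb had enough reads to test and it fell, and 0 of 5 macrophage markers passed. Of all tested genes 1.85% were called lower. An unadjusted p under 0.05 in edgeR, lower in KO, was found for 5 of 7 slow-fibre, 3 of 5 endothelial, 1 of 7 adipocyte and 1 of 5 macrophage markers. The same held for 12.1% of all tested genes. Without WT 3, 4 slow-fibre markers (Myh7, Tnni1, Myl2 and Atp2a2), 3 endothelial markers (Cdh5, Kdr and Tek) and 1 adipocyte marker (Cidea) fell, and 0 macrophage markers passed. In that fit 6.55% of all genes were called lower. With all libraries DESeq2 called 1 slow-fibre, 1 endothelial, 0 adipocyte and 0 macrophage markers lower, against 3.89% of all genes it tested. Summed levels of the slow-fibre list ran from 656 to 956 CPM in WT and from 773 to 1073 CPM in KO, mostly Myh2, the IIa myosin, and without Myh2 from 57.9 to 119.99 and from 42.7 to 48.8 CPM. Those of the endothelial list ran from 258 to 313 and from 196 to 227 CPM, those of the macrophage list from 21.4 to 58.2 and from 19.4 to 32.5 CPM, and those of the liver list from 1.95 to 38.3 and from 0.0374 to 1.60 CPM. The part of these cells in the results below was not tested.

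Transcripts of the fatty acid route lay higher in the KO libraries as a group, but no single member passed the test across all 7 libraries. Summed over the 38 genes, the level was 5103, 4641 and 3825 CPM in WT 1, WT 2 and WT 3, and 6502, 5599, 6381 and 5728 CPM in KO 1 to KO 4, that is 4523 ± 647 (SD, n = 3) against 6053 ± 455 CPM (SD, n = 4). Every KO library lay above every WT library in this sum. With edgeR's quasi-likelihood test, adjusted by Benjamini-Hochberg over 14002 genes at a threshold of 0.05, 0 of the 37 members with enough reads were called higher and 0 lower in KO, where 0.964% of all tested genes were called higher and 1.85% lower. Before adjustment, 15 of the 37 had a p under 0.05 with the higher level in KO (40.5%, against 8.14% of all tested genes) and 1, Acad10, with the lower level (12.1% of all tested genes). Groups did not overlap, with KO higher, for 19 of 37 (51.4%, against 11.0% of all tested genes), and with KO lower for Acad10 alone (11.4% of all tested genes). The log2 fold change, KO over WT, was positive for 31 of 37, with a median of 0.39 against -0.02 over all tested genes. DESeq2 called 5 members higher (Acat1, Acot2, Echs1, Eci2 and Hadh) and 0 lower, against 2.64% and 3.89% of all genes it tested.

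**Figure D1:**
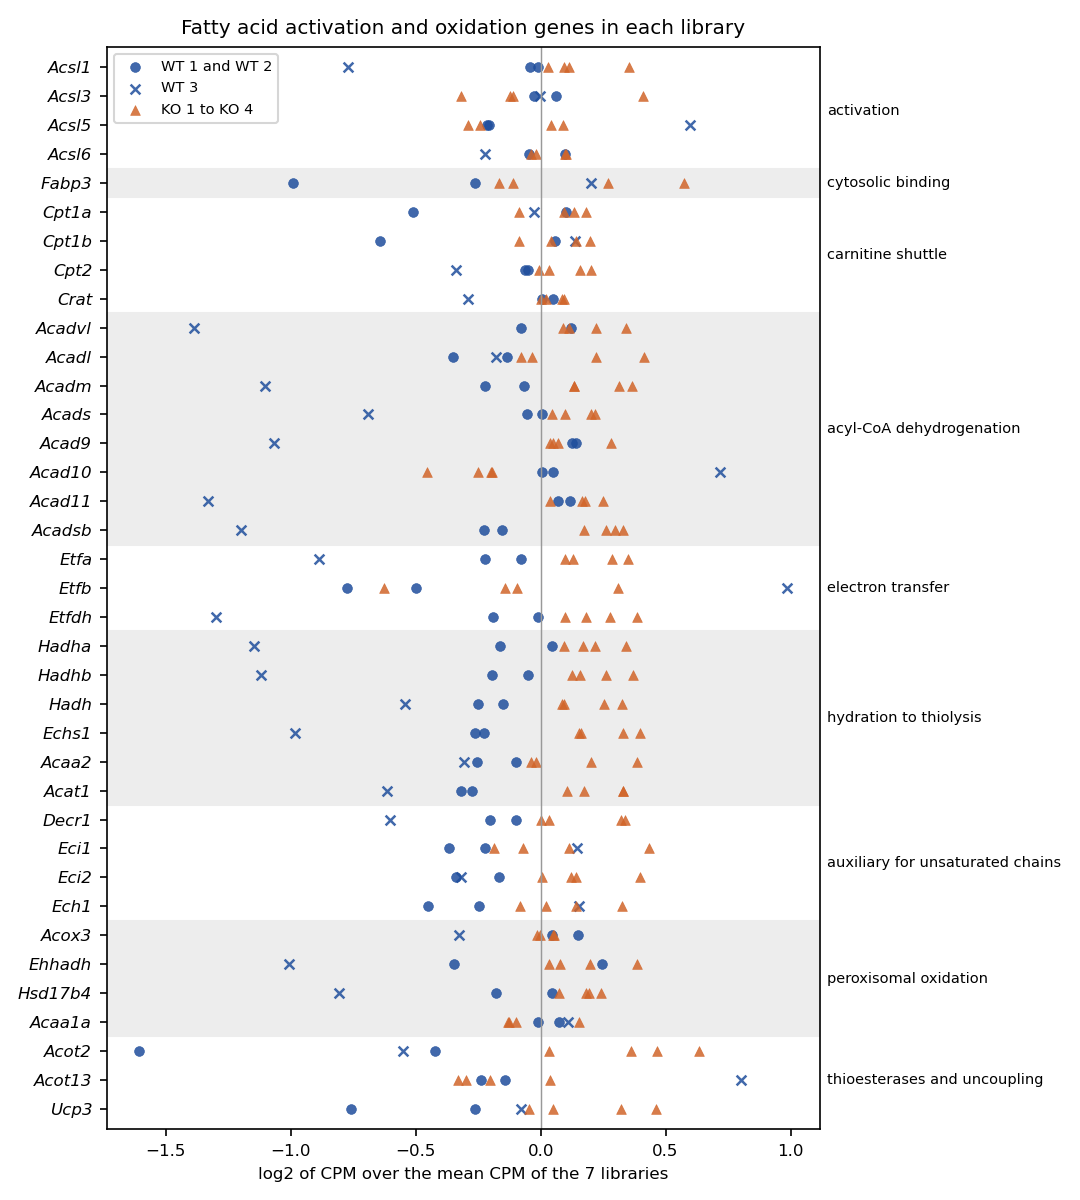
Level of the 37 tested genes in each library, as the log2 of the CPM over the mean of the 7 libraries, with genes ordered by step of the route. Circles are WT 1 and WT 2, crosses WT 3 and triangles the 4 KO libraries; triangles lie right of all WT marks for 19 genes, and the cross is the lowest mark for 22.

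The count of calls turned on WT 3. Left out, 12 of 38 members rose in KO (31.6%, against 6.15% of 14187 genes) and 0 fell (6.55% of all), namely Acadm, Acadsb, Acat1, Acot2, Ech1, Echs1, Eci2, Etfa, Etfdh, Hadh, Hadhb and Ucp3. All 5 genes that DESeq2 called with every library were among the 12. The median log2 fold change without WT 3 was 0.33 over 38 members, 33 of them positive, against 0.01 over all genes. It was higher than with all libraries for 13 of the 37 members tested in both fits, among them 3 of the 12 that rose (Acot2, Ech1 and Ucp3). Of the 37 tested members, 22 then had every KO library above WT 1 and WT 2 (59.5%, against 18.9% of all tested genes). Leaving out any other single library gave 0 calls among the members.

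**Figure D2:**
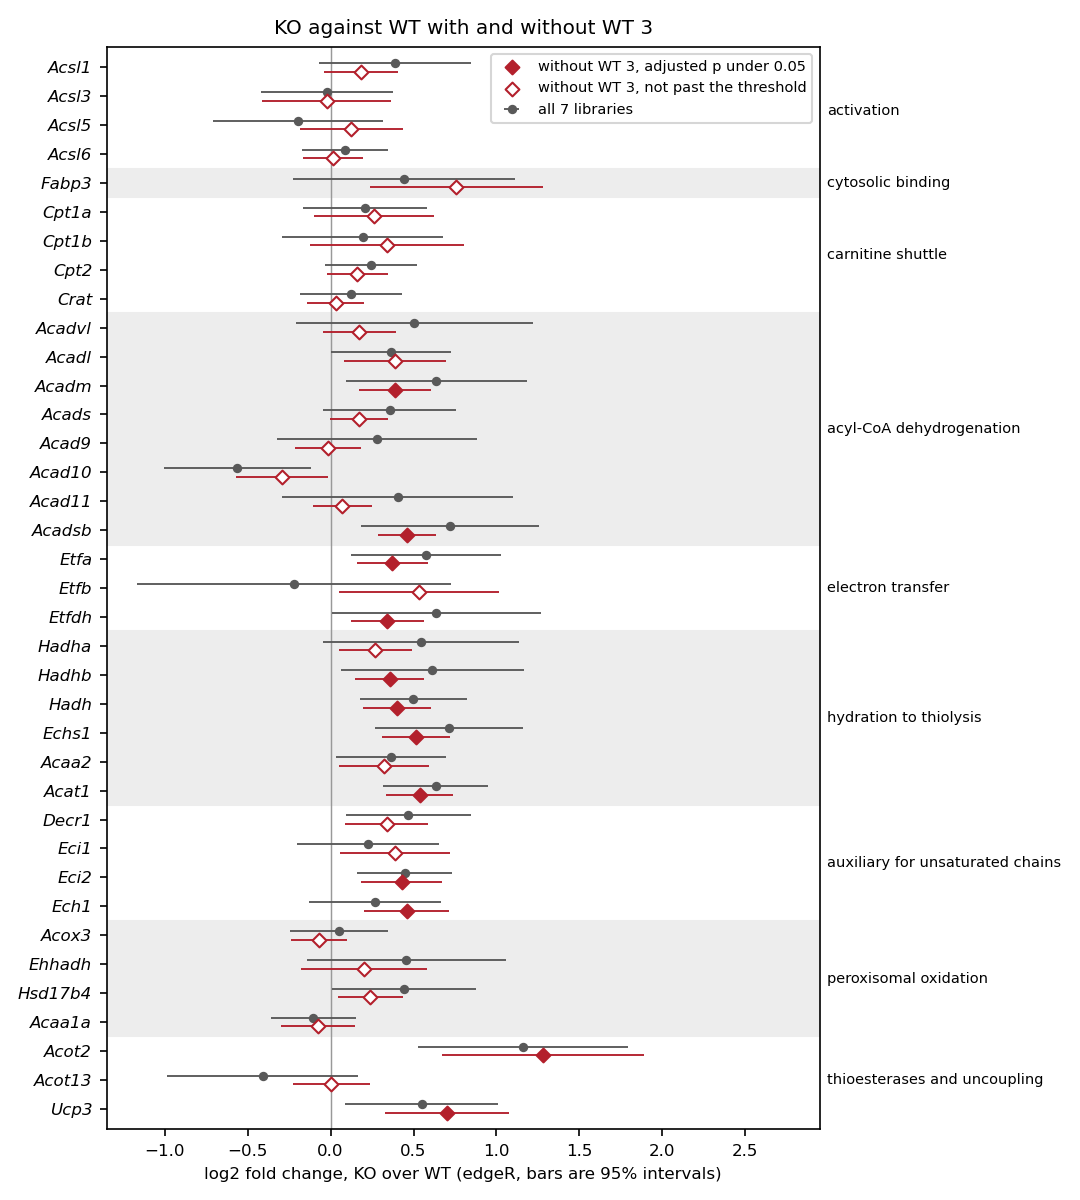
The log2 fold change of each tested gene, KO over WT, with its 95% interval from edgeR, using all 7 libraries (grey circles) and without WT 3 (red diamonds, filled where the adjusted p was under 0.05). Intervals are narrower for most genes without WT 3, and the filled diamonds mark the 12 genes that passed, all to the right of 0.

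Activation to acyl-CoA, the entry to the route, had a median log2 fold change of 0.03 over 4 synthetases (0.07 without WT 3), of which 0 had an unadjusted p under 0.05 in edgeR and DESeq2 called 0. Acsl1, the main long-chain acyl-CoA synthetase of muscle and fat, had 296, 289 and 175 CPM in WT and 318, 305, 381 and 323 CPM in KO. Its groups did not overlap, but WT 3 lay well below the other WT libraries, and the log2 fold change was 0.39 (SE 0.20, 95% interval -0.07 to 0.85). Acsl1 was also the most abundant synthetase per transcript length, at 65.0 CPM per kb in WT. Acsl5, a synthetase tied to triglyceride handling in gut and liver, had 6.76, 6.80 and 11.9 CPM in WT and 8.34, 6.40, 8.07 and 6.62 CPM in KO, so that the highest library was WT 3, and its log2 fold change of -0.20 became 0.13 without that library. The groups also overlapped for Acsl3 and Acsl6, with mean levels of 11.0 and 10.9 CPM and of 37.6 and 39.9 CPM in WT and KO. Fabp3, the muscle and heart protein that carries fatty acids through the cytosol, had 193 CPM per kb of transcript in WT, but 155 in WT 1 and WT 2 alone, and 262 in KO. It had 159, 96.2 and 220 CPM in WT and 284, 177, 231 and 170 CPM in KO. These groups overlapped through WT 3 and gave a log2 fold change of 0.44 (SE 0.29), and 0.76 without WT 3, short of the threshold in either fit.

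For the carnitine shuttle, 0 of 4 members passed in any of the fits described so far, 0 had an unadjusted p under 0.05 in edgeR with all libraries, and all 4 had a positive log2 fold change with a median of 0.20. Cpt2, which returns the acyl group to coenzyme A on the matrix side, had 77.2, 78.0 and 63.7 CPM in WT and 90.1, 80.4, 92.7 and 82.6 CPM in KO. Every KO library was above every WT library, by a log2 fold change of 0.24 (SE 0.12, 95% interval -0.03 to 0.52). Crat, which moves short acyl groups such as acetyl between coenzyme A and carnitine, was the most abundant of the 4 per transcript length, with 716, 694 and 566 CPM in WT and 734, 703, 739 and 693 CPM in KO. Its groups overlapped, and the log2 fold change was 0.12 (SE 0.13). Cpt1a, the liver form of the enzyme that loads acyl groups onto carnitine, had 9.998, 6.53 and 9.14 CPM in WT and 10.2, 8.78, 10.6 and 9.95 CPM in KO, which overlapped. Cpt1b, the muscle form and the gatekeeper of mitochondrial entry, was counted at only 1.95 to 3.33 CPM in WT and 2.86 to 3.47 CPM in KO. In the GENCODE M21 annotation, 2744 of the 3372 exonic bases of Cpt1b (chr15:89416405-89425863) lie under a readthrough gene on the same strand, Gm44502, and no row of the table matched Gm44502. The table sets ambiguous reads aside, but with no row for Gm44502 it cannot be told whether this overlap affected Cpt1b. The annotation used for counting is not given, so the level of Cpt1b is uncertain.

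Acyl-CoA dehydrogenation, the first reaction of each turn, is shared by enzymes for different chain lengths. Acadm, for medium chains, had 398, 357 and 194 CPM in WT and 537, 457, 518 and 457 CPM in KO. All KO libraries lay above all WT libraries, and the log2 fold change was 0.64 (SE 0.24, adjusted p 0.187, edgeR), or 0.39 without WT 3, where it passed. Acadsb, which acts on short branched chains from isoleucine, had 82.4, 78.3 and 40.0 CPM in WT and 103, 115, 109.7 and 113 CPM in KO. Its KO libraries were tightly grouped above WT, with a log2 fold change of 0.72 (SE 0.23, adjusted p 0.144, edgeR) and of 0.46 without WT 3, where it passed. Acadl, for long chains, and Acadm were the most abundant dehydrogenases per transcript length, at 158 and 154 CPM per kb in WT, 155 and 184 in WT 1 and WT 2 alone, and 203 and 240.5 in KO. Acadl had 320.0, 276 and 310.4 CPM in WT and 468, 333, 409.6 and 343 CPM in KO. The groups did not overlap, and WT 3 lay between the other WT libraries here (log2 fold change 0.36, SE 0.16). Acad10, a little-studied family member, was the exception, with 6.55, 6.76 and 10.7 CPM in WT and 5.71, 5.68, 5.49 and 4.77 CPM in KO. Every KO library was below every WT library, with a log2 fold change of -0.56 (SE 0.19, adjusted p 0.162, edgeR), or -0.29 without WT 3, the highest of the WT libraries. Acads, for short chains, also had no overlap (77.8 ± 19.1 CPM in WT, SD, n = 3, against 99.7 ± 5.61 CPM in KO, SD, n = 4). The groups overlapped for Acadvl, for very long chains, for Acad9, which doubles as an assembly factor of the respiratory chain, and for Acad11. Acadvl shares 1151 of its 2686 exonic bases with Dvl2 on the opposite strand, and without the strand setting of the counts its level is uncertain. Acadvl, Acad9 and Acad11 had a WT 3 level at log2 -1.41, -1.17 and -1.41 of the mean of WT 1 and WT 2, and without WT 3 their log2 fold changes were 0.17, -0.02 and 0.07.

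Electron transfer flavoprotein takes the electrons of these dehydrogenases, and its dehydrogenase passes them to ubiquinone. Etfa, the α subunit, had 195, 177 and 111 CPM in WT and 263, 225, 251 and 221 CPM in KO. Etfdh, the membrane enzyme, had 177, 156 and 72.4 CPM in WT and 216, 202, 233 and 191 CPM in KO. Both had all KO libraries above all WT libraries, with log2 fold changes of 0.57 (SE 0.20) and 0.64 (SE 0.28), and both passed without WT 3, at 0.37 and 0.34. Etfb, the β subunit that pairs with the α subunit, had overlapping groups, with 7.68, 6.34 and 21.5 CPM in WT and 13.5, 7.03, 10.2 and 9.83 CPM in KO. WT 3 was its highest library, and the log2 fold change of -0.22 (SE 0.41) became 0.53 without it, short of the threshold in either fit. Its level was also far below that of Etfa per transcript length, at 13.3 against 116 CPM per kb in WT. In GENCODE M21, 617 of the 1164 exonic bases of Etfb (chr7:43444083-43457800) lie under another gene on the same strand, Gm45233, which had 0 reads in every library, so the level of Etfb is uncertain.

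Hydration, the second dehydrogenation and thiolysis formed the step in which the groups separated most evenly. All 6 members had every KO library above every WT library, against 11.0% of all tested genes. WT 3 was the lowest of the 7 libraries for all 6. The median log2 fold change was 0.58, and 0.38 without WT 3. An unadjusted p under 0.05 in edgeR, higher in KO, was found for 5 of 6, against 8.14% of all tested genes. Acat1 (chr9:53580522-53610382), the mitochondrial thiolase that splits acetoacetyl-CoA and acts in ketone and isoleucine use, had 237, 229 and 187 CPM in WT and 359, 323, 359 and 308 CPM in KO. It had the smallest p of all members, with a log2 fold change of 0.63 (SE 0.14, 95% interval 0.32 to 0.95, adjusted p 0.0529, edgeR). The adjusted p of Acat1 ran from 0.000785 to 0.341 over 13 alternative fits, and its fold change from 0.54 to 0.70. Echs1, the short-chain enoyl-CoA hydratase, had 117, 119 and 70.9 CPM in WT and 176, 157, 184 and 156 CPM in KO. Its log2 fold change was 0.72 (SE 0.20, adjusted p 0.0929, edgeR), and 0.51 without WT 3, where it passed. Hadh, the 3-hydroxyacyl-CoA dehydrogenase for shorter chains, followed with 0.50 (SE 0.14, adjusted p 0.101, edgeR) on levels (mean ± SD) of 166 ± 22.7 CPM in the 3 WT and 235 ± 19.7 CPM in the 4 KO libraries. Acaa2, a thiolase, had 143 ± 10.9 and 183 ± 26.0 CPM.

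The trifunctional protein, which carries out these reactions on long chains at the inner membrane, is built from the products of Hadha and Hadhb, a pair of neighbouring genes read in opposite directions. Hadhb, the thiolase subunit and the most abundant member of the step per transcript length, had 270.5, 245 and 129 CPM in WT and 336, 306, 361 and 312 CPM in KO. Hadha, the hydratase and dehydrogenase subunit, had 405, 350.2 and 177 CPM in WT and 457, 419, 498 and 441 CPM in KO. The subunits kept the same order of libraries within WT, and their log2 fold changes were close, at 0.61 (SE 0.24) and 0.55 (SE 0.26). Without WT 3 they were 0.36 and 0.27, and only Hadhb passed. Their start sites in RefSeq (GRCm38.p6) are 273 bases apart on chromosome 5. In GENCODE M21 Hadha, on the minus strand, reaches to 30155162 and Hadhb begins at 30155248, closer together. The window around the RefSeq start of Hadhb, chr5:30155003-30155302 on the plus strand, covers most of the stretch between the RefSeq starts. By GENCODE M21 part of it lies within Hadha. It is shown with the first 50 transcribed bases of Hadhb by RefSeq in capitals.
Hadhb: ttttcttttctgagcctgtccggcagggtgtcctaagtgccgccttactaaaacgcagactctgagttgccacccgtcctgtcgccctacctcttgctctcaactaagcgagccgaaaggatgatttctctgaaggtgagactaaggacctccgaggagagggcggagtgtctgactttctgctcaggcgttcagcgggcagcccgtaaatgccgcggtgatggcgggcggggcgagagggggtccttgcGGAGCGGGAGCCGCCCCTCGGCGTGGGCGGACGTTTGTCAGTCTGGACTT

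Enzymes that bring double bonds into register let unsaturated fatty acids enter the same cycle. Eci2, an enoyl-CoA isomerase of mitochondria and peroxisomes, had 37.8, 33.6 and 34.0 CPM in WT and 55.9, 42.6, 46.9 and 46.1 CPM in KO. All KO libraries were above WT, here with WT 3 between WT 1 and WT 2, and the log2 fold change was 0.45 (SE 0.12, adjusted p 0.0980, edgeR), or 0.43 without WT 3, where it passed. Decr1, the 2,4-dienoyl-CoA reductase, had 131, 122 and 92.1 CPM in WT and 175, 143, 177 and 140.3 CPM in KO. It too showed no overlap (log2 fold change 0.47, SE 0.16) but passed in neither fit. Ech1, a dienoyl-CoA isomerase and the most abundant gene of the step per transcript length, had 113, 98.2 and 149 CPM in WT and 168, 127, 148 and 136 CPM in KO. Here WT 3 was the highest WT library and the groups overlapped, with a log2 fold change of 0.27 (SE 0.17), while without WT 3 it was 0.46 and passed. Eci1, the other isomerase, showed the same order, with WT 3 at 121 CPM against 93.6 and 84.9 CPM in WT 1 and WT 2, and did not pass.

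In peroxisomes 0 of 4 members passed in edgeR with or without WT 3, 1 had an unadjusted p under 0.05 with all libraries, and DESeq2 called 0. Hsd17b4, the multifunctional enzyme for branched and very long chains, had 58.2, 49.8 and 32.2 CPM in WT and 63.9, 64.6, 66.6 and 59.4 CPM in KO. Its groups did not overlap, with a log2 fold change of 0.44 (SE 0.19) and of 0.24 without WT 3. Ehhadh, the PPARα-induced counterpart in liver, had 9.01, 5.97 and 3.79 CPM in WT and 7.78, 9.93, 8.71 and 8.02 CPM in KO, which overlapped. The oxidase Acox3 and the thiolase Acaa1a also overlapped, with log2 fold changes of 0.05 (95% interval -0.24 to 0.35) and -0.11 (95% interval -0.36 to 0.15).

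The last step holds thioesterases, which release free fatty acids from coenzyme A, and Ucp3, a muscle carrier of the inner mitochondrial membrane whose transcript rises in fasting. Acot2, the mitochondrial long-chain thioesterase, had 6.48, 2.85 and 5.93 CPM in WT and 13.5, 11.2, 11.99 and 8.88 CPM in KO. It showed the largest fold change of the 37 tested members, a log2 value of 1.16 (SE 0.28, 95% interval 0.53 to 1.797, adjusted p 0.0667, edgeR), and all KO libraries were above WT. Acot2 passed with DESeq2 and without WT 3 (log2 fold change 1.28), and its adjusted p ran from 0.00198 to 0.215 over 13 alternative fits. Ucp3 had 257, 182 and 292 CPM in WT and 386, 298, 319 and 425 CPM in KO. Its groups were close but did not overlap, and the log2 fold change was 0.55 (SE 0.20), or 0.70 without WT 3, where it passed. Acot13, a small thioesterase of mitochondria with 180 CPM per kb in WT (135 in WT 1 and WT 2 alone) and 135 in KO, against 99.7 (89.9) and 146 for Ucp3, had 94.3, 101 and 194 CPM in WT and 114, 90.4, 96.7 and 88.6 CPM in KO. Its log2 fold change of -0.41 (SE 0.25) rested on WT 3 and was 0.0050 without it. Acot1, the cytosolic relative of Acot2, had 4, 2 and 3 reads in WT and 18, 6, 12 and 7 reads in KO, and was too low for the main test.

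Acot1 and Acot2 are neighbours on chromosome 12, at chr12:84009490-84018371 and chr12:83987861-83993873 of GRCm38, and reads from their common stretches cannot be placed. Of all runs of 50 bases in Acot2 transcripts 24.5% also occur in Acot1, and of those in Acot1 13.6% occur in Acot2. The longest run they share has 273 bases, shown as GENCODE M21 has it in both transcripts because a read inside it has no unique origin.
Acot1 and Acot2: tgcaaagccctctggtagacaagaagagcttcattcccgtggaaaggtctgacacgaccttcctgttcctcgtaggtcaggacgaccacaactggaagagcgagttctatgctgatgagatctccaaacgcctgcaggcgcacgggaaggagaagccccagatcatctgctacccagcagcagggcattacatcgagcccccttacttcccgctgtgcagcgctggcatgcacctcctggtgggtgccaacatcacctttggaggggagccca
Among the other members checked for near copies, Acaa1a shared 12.4% of such runs with Acaa1b, Eci2 2.12% with Eci3, and Cpt1a none with Cpt1b.

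Other mitochondrial genes were measured in the same libraries. In the same fit, 27 nuclear genes of the respiratory chain had a median log2 fold change of -0.09, with 9 of 27 positive, and 16 genes of the citrate cycle had a median of 0.09, with 11 of 16 positive, against 0.39 and 31 of 37 for the fatty acid genes. Neither list had a gene past the threshold in edgeR. An unadjusted p under 0.05 was found for 1 respiratory gene, lower in KO, and 1 citrate cycle gene, higher in KO, and DESeq2 likewise called 1 lower and 1 higher. Without WT 3 the medians were 0.05 and -0.02, against 0.33, with 0 genes higher and 1 lower (Cycs, cytochrome c) in the respiratory list, and 1 higher (Suclg2) and 1 lower (Dlst) in the citrate cycle. Positive values then numbered 21 of 27 in the respiratory list and 7 of 16 in the citrate cycle, so the balance of signs in both lists turned with WT 3. Summed levels of the respiratory list were 17376 ± 1120 CPM (SD) in the 3 WT and 17227 ± 1445 CPM in the 4 KO libraries, and those of the citrate cycle 10134 ± 1751 and 10963 ± 528 CPM. Genes of branched-chain, propionyl and ketone use, 14 of the other pathway genes described below, had a median of 0.28 with 13 of 14 positive. Without WT 3 their median was 0.12, again with 13 of 14 positive. Whether the lists differ from the fatty acid genes was not tested, since their genes were measured in the same libraries and are not replicates.

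**Figure D3:**
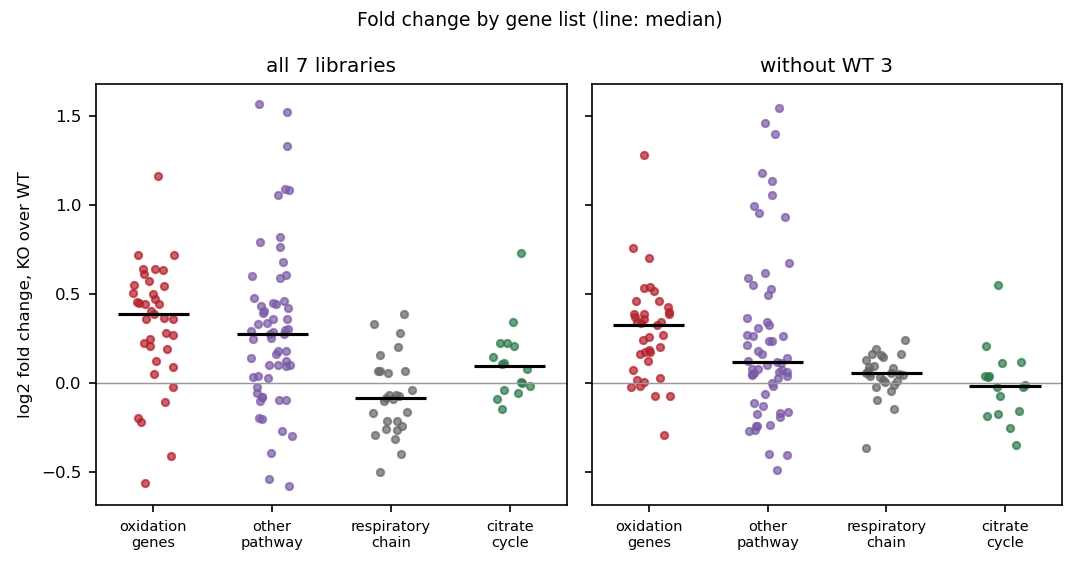
The log2 fold change, KO over WT, of each tested gene in the fatty acid set, in the list of other genes of the pathway, in the nuclear respiratory chain list and in the citrate cycle list, with all 7 libraries (left) and without WT 3 (right); lines are medians. The median of the fatty acid set is 0.39 and 0.33, that of the respiratory chain -0.09 and 0.05.

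Other genes of the pathway, a list of 62 carriers, regulators, peroxisomal and neighbouring enzymes of which 59 could be tested, had 5 past the threshold higher in KO and 0 lower, where 0.964% and 1.85% of all tested genes passed. The median log2 fold change was 0.28. Leaving out WT 3 gave 13 higher, 2 lower (Acsl4 and Acot9) and a median of 0.12. In that fit 6.15% of all genes were called higher and 6.55% lower. The 9 tested synthetases and thioesterases of this list had a median of -0.10 with all libraries, with 3 of 9 positive and 1 called higher. Acot9 had a log2 fold change of -0.54 with all libraries (SE 0.13, adjusted p 0.0678, edgeR), and DESeq2 also called it lower. Of the 5 called higher with all libraries, 4 are regulators among 13 on the list. Klf15, a transcription factor that governs lipid and amino acid use in fasting muscle, had 17.7, 19.9 and 16.2 CPM in WT and 51.2, 50.1, 47.7 and 57.2 CPM in KO, and rose by a log2 fold change of 1.52 (SE 0.12, adjusted p 0.00502, edgeR). Foxo1, a factor of the fasting response and of atrophy, had 16.8, 14.98 and 15.02 CPM in WT and 40.0, 39.5, 42.1 and 63.4 CPM in KO, a rise of 1.57 (SE 0.19, adjusted p 0.0129, edgeR). Both showed KO libraries more than 1 log2 unit above WT, with WT 3 in place among the WT libraries. Ppargc1a, the coactivator that drives mitochondrial genes, rose by 0.68 (SE 0.10, adjusted p 0.0185, edgeR), from 44.4 to 48.4 CPM in WT to between 70.5 and 77.5 CPM in KO. Nrip1, a corepressor that holds the same genes down in muscle and fat, rose by 1.09 (SE 0.15, adjusted p 0.0171, edgeR), from 24.9 to 30.9 CPM in WT to between 50.9 and 72.7 CPM in KO. Acss1, the mitochondrial acetyl-CoA synthetase, rose by 1.06 (SE 0.15, adjusted p 0.0167, edgeR), with levels (mean ± SD) of 11.3 ± 1.25 CPM in the 3 WT and 23.5 ± 3.35 CPM in the 4 KO libraries. With 1 library left out in turn, Klf15 passed in 7 of 7 fits, Foxo1 in 6, and Ppargc1a, Nrip1 and Acss1 in 2 each. Among receptors, Ppara, Ppard and Esrra did not pass in edgeR, with or without WT 3, with log2 fold changes of 1.33 (SE 0.47) for Ppara, 0.29 (SE 0.11) for Ppard and 0.09 (SE 0.11) for Esrra. DESeq2 called Ppara higher in KO, and Pparg, the receptor best known from fat cells, passed in edgeR without WT 3 only (log2 fold change 0.95, against 0.45 with all libraries). Ppara, the fatty acid receptor that induces much of the route in liver, had 7.47, 7.13 and 1.89 CPM in WT and 7.29, 13.8, 17.7 and 16.9 CPM in KO, with KO 1 among the WT libraries.

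Members varied in common within each group. WT 3 was the lowest of the 7 libraries for 22 of 37 members (59.5%, against 34.5% of all tested genes) and the highest for 4. Its log2 level relative to the mean of WT 1 and WT 2 had a median of -0.32 over the members, 0.01 over all tested genes, 0.34 over the respiratory list and -0.56 over the citrate cycle list. The relative level of WT 3 also varied with transcript length. Members were shorter than tested genes as a whole, with a median transcript length of 2377 against 3027 bases. Across genes this relative level of WT 3 had a Spearman rho with length of -0.38 over 13974 genes and -0.32 over the 37 members. For KO 1, taken against the mean of the other KO libraries, the values were -0.41 and -0.74. These are descriptions across genes of single libraries, which share depth and preparation. The 5 shortest members, Acot13, Fabp3, Etfb, Eci1 and Ech1, were all higher in WT 3 than in the mean of WT 1 and WT 2, and the longest, Acadsb, was lower. Length did not order the rest, since Etfa (1392 bases) and Echs1 (1557 bases) were low in WT 3, at log2 -0.74 and -0.73, and Acsl5 (4243 bases) was high, at 0.76. With offsets that remove a length trend from each library, a fit added after the data were seen, 2 members (Acat1 and Acot2) passed, against 1.53% of all genes higher and 2.68% lower, and the median log2 fold change was 0.42. Among the KO libraries, KO 1 and KO 3 were both above KO 2 and KO 4 for 25 of 37 members (67.6%, against 18.5% of all tested genes) and for 24 of 27 genes of the respiratory list. The same pair had the highest share of mitochondrially encoded reads in KO, at 17.9% and 17.2% against 15.8% and 15.9%, and its part in the result was not tested.

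**Figure D4:**
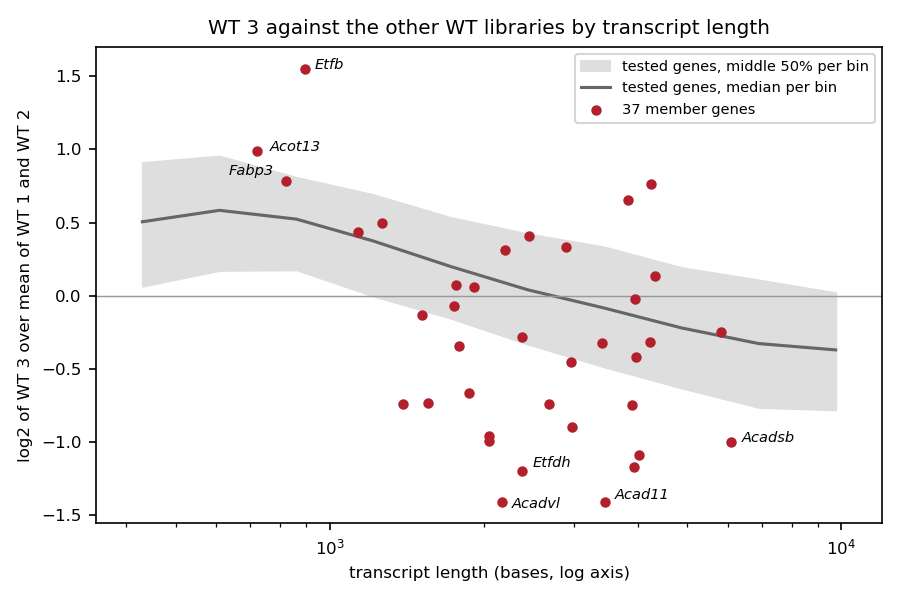
The log2 level of WT 3 over the mean of WT 1 and WT 2 against transcript length in bases (log axis), with the 37 tested genes as points, the median of all tested genes per bin as a line and their middle 50% as a band. The line falls from left to right; most points lie below it, and the 3 highest are the short genes Etfb, Acot13 and Fabp3.

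Sequence features that the members could share were looked for in promoters and 3′ UTRs. Promoter windows of RefSeq, 250 bases before and 50 after the start on GRCm38.p6, were found for 30 of the 38 members; Acaa2, Acad9, Acat1, Acot13, Cpt1b, Crat, Decr1 and Hsd17b4 had no entry. Both strands were searched. The full PPAR/RXR element, a direct repeat of AGGTCA with 1 base between, was in 0 of 30 windows (0.0481% of 27025 genes). A looser form of it with AGGNCA in each repeat, which includes the first, was in 0 of 30 (0.451%). The FoxO element GTAAACA was in 0 of 30 (4.05%). At such low shares 30 windows are too few to tell whether the members lack these elements. Sequence outside the windows was not searched. The element of oestrogen-related receptors, TCAAGGTCA, was in 1 of 30 windows (0.466% of the 27025 genes), in Acsl6. It is shown in capitals, as it reads on the opposite strand, in chr11:54303647-54303676 of the plus strand.
Acsl6: gcctccaaccTGACCTTGAgcattcttatt
The first base of the word lies at -167 from the start site, and Acsl6 is a member whose groups overlapped. Complements of the miR-486-5p seed, GTACAGG or TACAGGA, which overlap by 6 bases, were in the longest annotated 3′ UTR of 1 of 38 members (2.63%) and of 2105 of the 12566 tested genes with a 3′ UTR (16.8%). The members' 3′ UTRs were short, with a median of 598.5 bases against 1384.5. The single match, in capitals, begins at base 852 of the 1922-base 3′ UTR of Acad9, on chromosome 3.
Acad9: tatatgccccaGTACAGGggaaacactagg
Acad9 had 28.7, 28.4 and 12.4 CPM in WT and 26.7, 26.9, 31.6 and 27.3 CPM in KO, and its log2 fold change was 0.28 (SE 0.26) with WT 3 and -0.02 without it.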

How the data were processed

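RNA was sequenced from TA muscle of 3 WT and 4 mir-486 KO libraries, grouped and numbered by sample title. The authors deposited raw counts of reads for each Ensembl gene, not normalized. HTSeq 0.6.1, STAR 2.5.2b, Trim Galore 0.4.2 and CASAVA 1.8.2 are listed in the submitters' processing notes. The study's methods instead describe Salmon. Which build, annotation and strand setting HTSeq used is not given in the sources used here, so reads of overlapping or antisense genes are uncertain. The table has 48800 rows, and 5 summary rows were left out of library sizes and tests (24.4% to 34.3% of reads without unique alignment, 3.25% to 4.34% without a feature, 4.04% to 4.44% ambiguous). Identifiers of 48435 genes matched GENCODE M21 (GRCm38), which gave symbols, positions, the longest coding transcript of each gene for levels per kb, and 3′ UTRs. All pairs of libraries differed by more than sampling noise.

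The main test was that of edgeR 4.0.16 in R 4.3.3 (filterByExpr at a minimum count of 10, TMM, glmQLFit and glmQLFTest on genotype over all 7 libraries, Benjamini-Hochberg over 14002 genes, threshold 0.05). SE is the log2 fold change over the square root of F. Alternatives were DESeq2 1.42.0, RLE factors, no filter on low counts, mitochondrially encoded genes left out, a replicate block, each library left out and, added after the data were seen, length-trend offsets. The steps were tested on simulated counts. Members and lists were chosen with earlier results of these data known. Values per library are given for the 2 smallest p and the most abundant gene per length in each step; a member named for another reason was chosen after its values were seen. Of the other lists, genes past the threshold are named; those named beyond that, such as the receptors Ppara, Ppard, Pparg and Esrra, were likewise chosen after their values were seen.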

Additional observations from a re-analysis of the deposited data

Results flagged for a closer look

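In 2 members 1 of the 4 KO libraries lay apart from the other 3 by more than Dixon's 95% critical value, and chance alone gives this in about 1 in 20 groups. Acad9 had 31.6 CPM in KO 3 against 26.7 to 27.3 CPM in the other KO libraries, a gap of 0.880 of the group's range. Acaa1a had 23.0 CPM in KO 1 against 18.9 to 19.3 CPM in the others, a gap of 0.899 of the range. Neither gene passed the test in any fit reported here. WT, with 3 libraries, cannot be examined in this way.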

How the results depend on the processing

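Members called higher in KO numbered 0 in the fit reported, 5 with DESeq2, 1 with no filter on low counts, 2 with length-trend offsets (added after the data were seen), and 0 to 12 with 1 library left out, the 12 without WT 3; members called lower numbered 0 in every fit run. Over all genes, 135 were called higher and 259 lower, against 407 and 600 with DESeq2, 214 higher with length-trend offsets, and 10 to 873 higher and 10 to 929 lower with 1 library left out. With 1 library left out, the log2 fold change of Acsl5 ran from -0.34 to 0.13 and that of Acot13 from -0.59 to 0.0050, both reversed only without WT 3 and neither called. Etfb, Acad9 and Acox3 also changed sign without WT 3, to 0.53, -0.02 and -0.07, and none of these was called. RLE factors and leaving out mitochondrially encoded genes changed no call among the 22 named members. Depth was similar in all libraries, and only Acot1 was limited by it. The cause of these differences was not tested.

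With the replicate number as a block, without KO 4, which has no WT partner, 0 genes were called higher and 0 lower, and 0 members. Same-numbered WT and KO libraries had correlations of deviations of -0.33, 0.28 and -0.15, and not every library correlated best with its own number. Deviations were taken from the mean of each small group, which ties them to one another. Whether the numbers pair the samples therefore cannot be told from these values.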
